A study of Mus musculus with 9 samples.

Results

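The BCL2 family decides at the outer mitochondrial membrane whether a cell enters apoptosis, and 10 of its genes were followed here through leukemia cells of the mouse. The members were picked by gene symbol: Bcl2, Bcl2l1, Mcl1, Bcl2a1b, Bcl2a1d, Bax, Bak1, Bcl2l11, Pmaip1 and Bbc3. Each symbol matched 1 row, so 10 of the 55536 genes in the expression table were members, and all 10 passed the filter on low values in every comparison.

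Family members fall into 3 classes. Pro-survival proteins (Bcl2, Bcl2l1, Mcl1 and the Bcl2a1 copies) hold the effectors Bax and Bak1 in check, and activated effectors form pores that release cytochrome c. BH3-only proteins (Bcl2l11, also called Bim, Pmaip1, also called Noxa, and Bbc3, also called Puma) block the pro-survival proteins or activate the effectors, and several of them are made in response to stress or p53. Acute myeloid leukemia cells are known for their dependence on Mcl1 and Bcl2.

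The study used a model of acute myeloid leukemia (AML) in which c-kit+ bone marrow cells of C57BL/6J mice were transduced with a retrovirus that carries the fusion gene MLL-AF9 and GFP. The donors were wild-type (WT) mice or mice with both alleles of Irf7 disrupted, in which a PGK-beta-geo cassette stands in place of exons 2 and 3. GFP+ leukemia cells were transplanted into recipients 6 to 8 weeks old that had not been irradiated, at 1000000 cells per mouse, and marrow was taken on day 18. Messenger RNA of sorted cells was sequenced in 9 libraries, 3 for each of 3 groups of cells: c-kit- from wild-type leukemia (WT c-kit-), c-kit+ from wild-type leukemia (WT c-kit+), and c-kit+ from leukemia of the Irf7-disrupted donors (IRF7-/- c-kit+). Every group thus carried MLL-AF9, the WT groups with intact Irf7, and c-kit is the receptor that marks leukemia cells with an immature phenotype. The labels do not say whether the 3 libraries of a group came from separate mice, so the p-values measure only the spread between these libraries, which may be technical.

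The values are TPM (transcripts per 1000000, scaled for transcript length), with no counts or depth given, and the library totals ran from 987468 to 992231 TPM. Irf7, the disrupted gene, was at 23.5, 22.3 and 32.3 TPM in the WT c-kit- libraries, 5.31, 3.91 and 3.36 in the WT c-kit+ libraries, and 12.8, 5.97 and 7.95 in the libraries labelled IRF7-/- c-kit+. The gene-level value was thus higher in the libraries labelled as knockout than in WT c-kit+, and since the table holds no exon-level values it checks neither the deletion nor the label. Kit ranged from 0.520 to 3.03 TPM in WT c-kit- and from 50.7 to 58.5 TPM in WT c-kit+. In the libraries labelled IRF7-/- c-kit+ it ranged from 70.3 to 85.7 TPM, so the c-kit+ groups did not overlap in Kit. All 4 leukemia markers (Hoxa9, Hoxa10, Meis1 and Kit) were above 1 TPM on average in each group, no T cell marker of 5 was, and of 5 B cell markers only Cd79b was. The 7 erythroid markers summed to at most 18.1 TPM. The 5 megakaryocyte markers summed to 2.01 to 3.31 TPM in WT c-kit-, 10.4 to 11.3 in WT c-kit+ and 9.94 to 13.9 in the libraries labelled IRF7-/- c-kit+. The 6 markers of stroma and endothelium, mostly Pecam1, which white blood cells also make, summed to 87.6 to 103, 39.5 to 50.2 and 110.1 to 120.1 TPM in the same order, lowest in WT c-kit+ as Bax was. The part of these markers in the members' differences was not tested.

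The WT c-kit+ libraries stood apart in the level of neutrophil genes. The 16 myeloid markers, led by S100a9, summed to between 84269 and 136202 TPM there, against 15141 to 38624 in WT c-kit- and 21200 to 25396 in the libraries labelled IRF7-/- c-kit+. The 10 most abundant genes of each library took 13.1 to 17.3% of its TPM in WT c-kit+ and 9.39 to 10.3% in the other 6 libraries. Because TPM is a share of the whole, every other gene reads lower where such genes take more, and the part of this in each member's difference was not tested beyond the rescaled values given below.

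Of the pro-survival members Mcl1 was the most abundant per length in all 9 libraries. Mcl1, a short-lived protein that holds Bak1 and the BH3-only proteins, lies on the plus strand of chromosome 3 in GRCm38, from 95658788 to 95663176. It was at 202, 250.2 and 268 TPM in WT c-kit-, at 133, 147 and 114 TPM in WT c-kit+, and at 77.1, 79.1 and 84.6 TPM in the libraries labelled IRF7-/- c-kit+. The groups stood in that order with no overlap between neighbours, so that the lowest WT c-kit- library was above every c-kit+ library. Tested with limma on log2(TPM + 1), with Benjamini-Hochberg adjustment over all genes tested, Mcl1 fell by 0.86 from WT c-kit- to WT c-kit+ (SE 0.13, adjusted p = 0.00243), a 1.83-fold lower mean TPM. It fell by a further 0.70 from WT c-kit+ to the libraries labelled IRF7-/- c-kit+ (SE 0.10, adjusted p = 0.00167), a 1.63-fold lower mean. Here and below a log2 difference understates the change of low genes, because 1 is added to each value.

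Bcl2, which in the clinic is the target of BH3 mimetics, is encoded on the minus strand of chromosome 1, from 106538178 to 106714274. Its level was 21.6, 29.1 and 22.6 TPM in WT c-kit-, 9.30, 15.1 and 10.03 in WT c-kit+, and 5.89, 10.2 and 5.32 in the libraries labelled IRF7-/- c-kit+. WT c-kit- was above both other groups without overlap, while 1 library labelled IRF7-/- c-kit+ lay within the range of WT c-kit+. Bcl2 fell by 1.04 from WT c-kit- to WT c-kit+ (SE 0.20, limma adjusted p = 0.00592), which is 2.13-fold in mean TPM. Between the c-kit+ groups the difference of -0.63 (SE 0.26, 95% interval -1.26 to -0.00) missed the threshold at adjusted p = 0.0893. With the most abundant genes left out of the total it was -0.78 at adjusted p = 0.0491. Leaving out single libraries moved it in both directions, from -0.89 without IRF7-/- c-kit+ replicate 2 (adjusted p = 0.0209) to -0.47 without IRF7-/- c-kit+ replicate 3 (adjusted p = 0.232) and -0.44 without WT c-kit+ replicate 2 (adjusted p = 0.224).

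Bcl2l1 (Bcl-xL) went another way. Encoded on chromosome 2 between 152780668 and 152831728, it was at 18.9, 14.8 and 16.8 TPM in WT c-kit-, 22.9, 19.8 and 22.4 in WT c-kit+, and 12.9, 13.9 and 17.2 in the libraries labelled IRF7-/- c-kit+. WT c-kit+ was the highest group and did not overlap the others, which overlapped each other. Bcl2l1 was the only member of the 10 called higher in WT c-kit+ than in WT c-kit-, by 0.35 (SE 0.11, limma adjusted p = 0.0429). That call was lost without WT c-kit+ replicate 1 (0.31, adjusted p = 0.129), without WT c-kit+ replicate 3 (0.33, adjusted p = 0.121), without WT c-kit- replicate 2 (0.27, adjusted p = 0.117) and without WT c-kit- replicate 3 (0.36, adjusted p = 0.0837), and also without the filter on low values (adjusted p = 0.0764). Against WT c-kit+ it fell by 0.54 in the libraries labelled IRF7-/- c-kit+ (SE 0.12, adjusted p = 0.0101), and this call held under each alternative tried.

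Bcl2a1b and Bcl2a1d are copies of the gene for A1 (BFL-1), an NF-kappaB target of white blood cells that binds BH3-only proteins. Both lie on chromosome 9, as does Bcl2a1a, with Bcl2a1b from 89199209 to 89207827 and Bcl2a1d from 88723285 to 88731914. Their coding sequences show why values of single copies are uncertain: Bcl2a1a, Bcl2a1b and Bcl2a1d differ at 12 of 516 bases. The first 150 coding bases of each, 5′ to 3′ from GRCm38, are printed because 7 of the 12 variable bases, in capitals, fall there. The stretches lie at chr9:88957051-88957200 on the plus strand for Bcl2a1a, at chr9:89199360-89199509 on the plus strand for Bcl2a1b and at chr9:88731570-88731719 on the minus strand for Bcl2a1d.
Bcl2a1a: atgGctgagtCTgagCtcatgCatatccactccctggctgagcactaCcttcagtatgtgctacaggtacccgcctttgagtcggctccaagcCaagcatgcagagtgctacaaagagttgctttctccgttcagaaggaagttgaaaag
Bcl2a1b: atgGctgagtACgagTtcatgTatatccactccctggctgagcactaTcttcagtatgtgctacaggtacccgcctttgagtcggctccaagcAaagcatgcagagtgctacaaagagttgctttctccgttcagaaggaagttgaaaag
Bcl2a1d: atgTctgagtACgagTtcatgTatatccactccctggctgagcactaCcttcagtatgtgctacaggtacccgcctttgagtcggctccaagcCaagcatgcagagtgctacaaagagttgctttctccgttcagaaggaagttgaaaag
Over the whole coding sequence Bcl2a1b and Bcl2a1d differ at 6 bases (98.8% identical), and Bcl2a1a differs from them at 11 and 7. Of the 50-base windows of each transcript, 79.5% in Bcl2a1d, 69.0% in Bcl2a1a and 57.6% in Bcl2a1b occur in another copy (Bcl2a1c, a more distant one, included), so reads from them could be split between copies, and how the quantification shared such reads is not stated in the sources used here.

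Bcl2a1b was at 1.24, 1.28 and 3.77 TPM in WT c-kit-, 2.26, 2.18 and 2.57 in WT c-kit+, and 2.37, 1.96 and 0.890 in the libraries labelled IRF7-/- c-kit+. Bcl2a1d was at 2.59, 1.27 and 1.69, then 0.840, 0.720 and 2.39, then 2.95, 1.55 and 1.59 TPM in the same order of groups. Both copies were close to the filter of 1 TPM, all groups overlapped, and no comparison passed the test (limma adjusted p from 0.283 to 0.791). Summing the copies gave another picture, with 3.72 to 6.62 TPM in WT c-kit-, 5.28 to 7.02 in WT c-kit+ and 8.33 to 9.74 in the libraries labelled IRF7-/- c-kit+. The sum was higher in the latter than in WT c-kit+ by 0.54 (SE 0.13, limma adjusted p = 0.0131) and than in WT c-kit- by 0.73 (SE 0.19, adjusted p = 0.0145). Most of that difference lay in Bcl2a1a, which is no member, at 4.91 ± 1.14 TPM (SD, n = 3) in the libraries labelled IRF7-/- c-kit+ and 1.88 ± 0.382 TPM (SD, n = 3) in WT c-kit+.

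**Figure D1:**
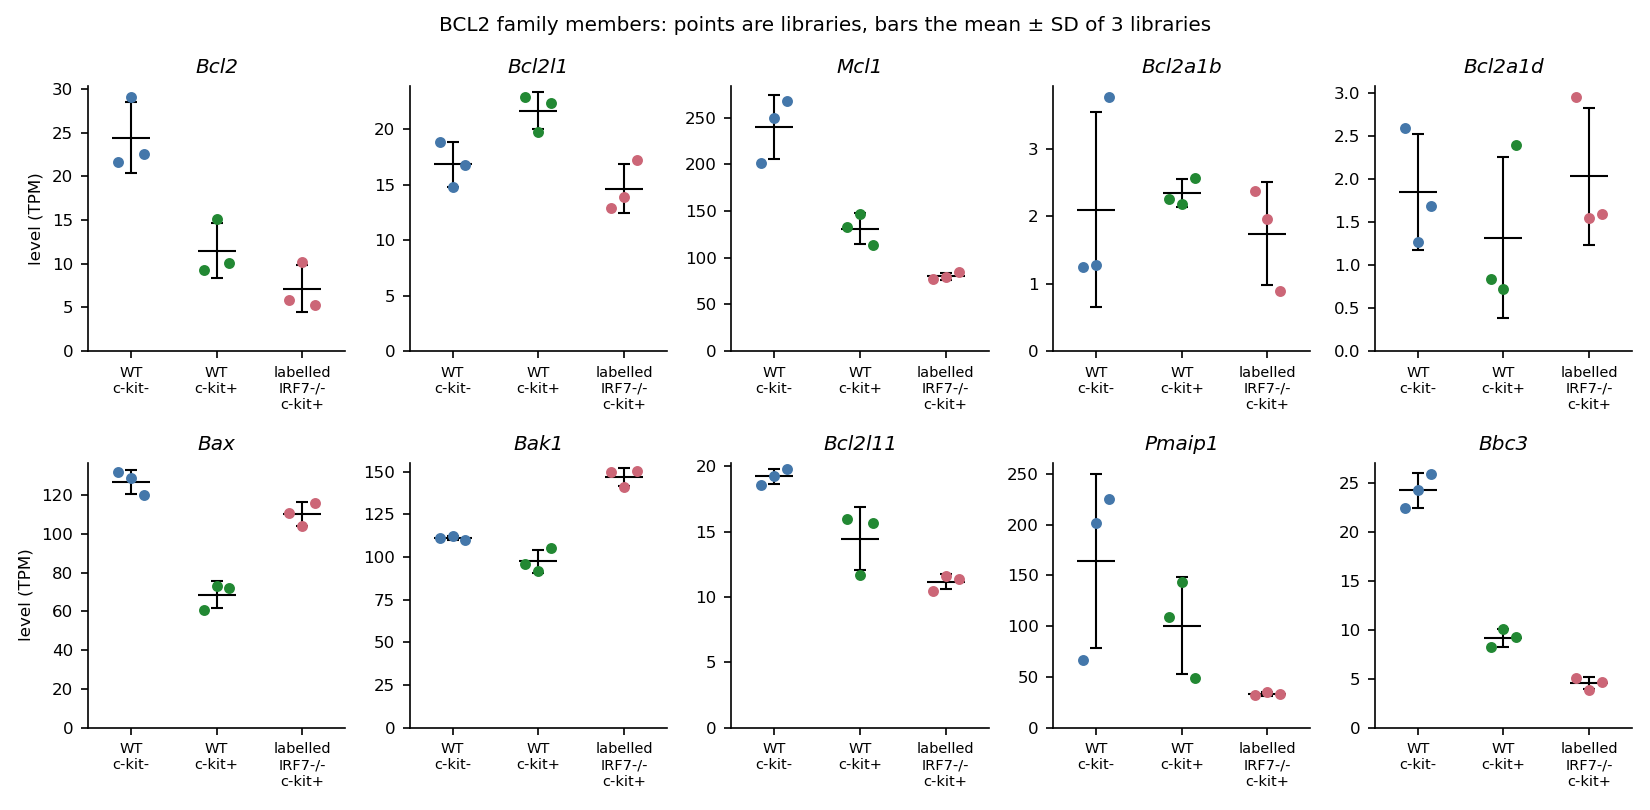
Level of each member in TPM (vertical axes, from 0) in the 3 groups, with 1 point per library and the mean ± SD of 3 libraries. Mcl1 and Bbc3 step down from WT c-kit- to WT c-kit+ to the libraries labelled IRF7-/- c-kit+, Bax is lowest in WT c-kit+, and Pmaip1 spreads from 66.4 to 225 TPM within WT c-kit-.

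The effectors moved apart from Mcl1 and Bcl2l1 between the c-kit+ groups. Bax, which moves from the cytosol to mitochondria when activated, is encoded on the minus strand of chromosome 7 (45461697 to 45466898). Bax was at 132, 129 and 120.0 TPM in WT c-kit-, at 60.5, 73.0 and 72.3 TPM in WT c-kit+, and at 111, 104 and 116 TPM in the libraries labelled IRF7-/- c-kit+. No group overlapped another, and WT c-kit+ was far the lowest. From WT c-kit- to WT c-kit+ Bax fell by 0.89 (SE 0.09, limma adjusted p = 0.000366), and in the libraries labelled IRF7-/- c-kit+ it rose against WT c-kit+ by 0.68 (SE 0.09, adjusted p = 0.00129), a 1.61-fold higher mean. WT c-kit+ was also the group with the high neutrophil genes. With the most abundant genes left out of the total the same differences were -0.77 (adjusted p = 0.000487) and 0.53 (adjusted p = 0.00246), so both calls held on that scale. The small fall from WT c-kit- to the libraries labelled IRF7-/- c-kit+, by 0.20 (SE 0.06, adjusted p = 0.0304), was lost under 7 of 14 alternatives, among them each fit without IRF7-/- c-kit+ replicate 1 (-0.21, adjusted p = 0.0754) or 2 (-0.16, adjusted p = 0.0833) and without WT c-kit- replicate 1 (-0.17, adjusted p = 0.0887) or 2 (-0.19, adjusted p = 0.0804).

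Bak1, the effector that resides in the mitochondrial membrane and is held by Mcl1 and Bcl-xL, lies on the minus strand of chromosome 17 (27019810 to 27029009). It was at 111, 112 and 109.9 TPM in WT c-kit-, at 95.8, 91.6 and 105 TPM in WT c-kit+, and at 149.8, 141 and 150.3 TPM in the libraries labelled IRF7-/- c-kit+. The latter were the highest of the 3 groups, with no overlap anywhere. Bak1 rose in them by 0.59 against WT c-kit+ (SE 0.07, limma adjusted p = 0.000836, 1.51-fold in mean TPM) and by 0.40 against WT c-kit- (SE 0.05, adjusted p = 0.000546). Both calls held under each alternative tried. Between the WT groups the difference of -0.18 missed the threshold (SE 0.07, adjusted p = 0.0611) and was 0.01 after quantile normalization (adjusted p = 0.957) and -0.24 without WT c-kit+ replicate 3 (adjusted p = 0.0355).

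Bak1 overlaps 2 loci annotated as Ggnbp1 on the other strand, and Bax overlaps the annotated locus Gm45808 on its own strand. These neighbours were low, at 0.680 to 9.66 TPM for the Ggnbp1 loci and 0 to 3.41 TPM for Gm45808. The sources used here do not say if the quantification took strand into account. Loci that overlap Bcl2, Bcl2a1b or Bcl2a1d were at or below 0.330 TPM in every library.

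**Figure D2:**
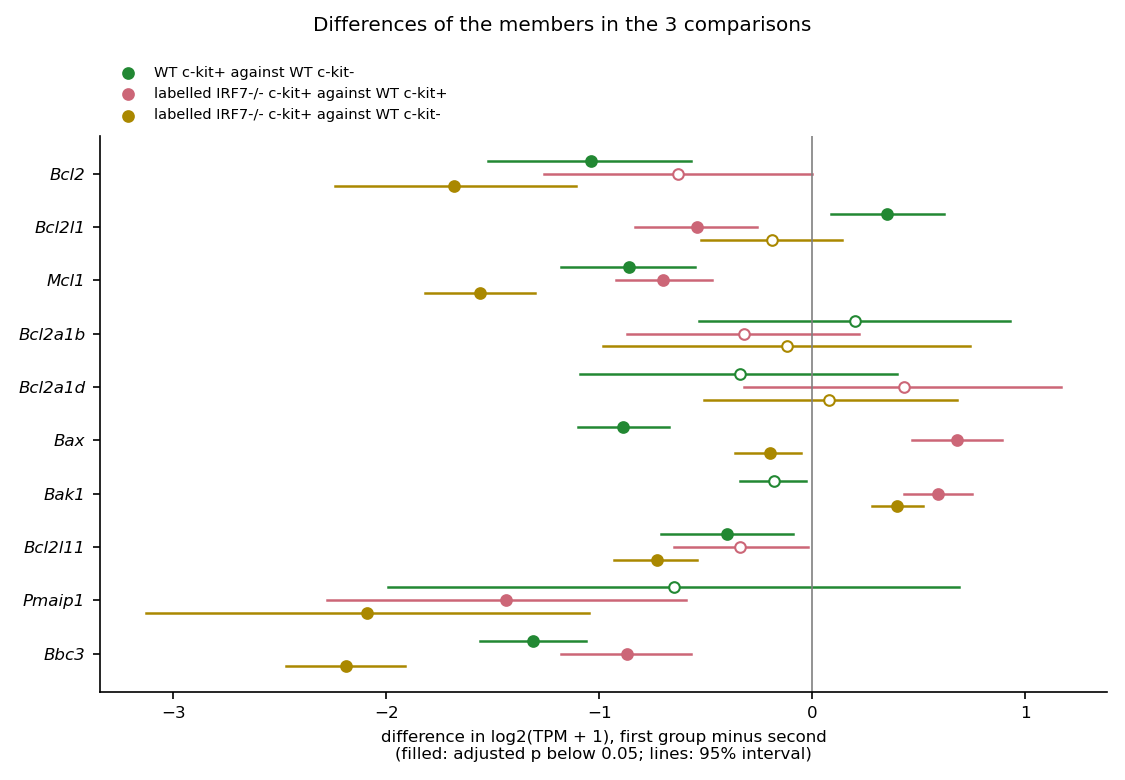
Difference of each member in log2(TPM + 1), first group minus second (horizontal axis), with its 95% interval, in the 3 comparisons shown by colour; filled points passed adjusted p below 0.05. Bax and Bak1 sit at 0.68 and 0.59 for the libraries labelled IRF7-/- c-kit+ against WT c-kit+, while Mcl1, Bcl2l1, Pmaip1 and Bbc3 lie below 0 there.

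Bbc3, a p53 target that binds every pro-survival protein, had the widest range of group means among the members on the log2(TPM + 1) scale, 2.19. It is encoded on chromosome 7 (16308393 to 16318205) and was at 22.4, 24.3 and 25.9 TPM in WT c-kit-, 8.19, 10.02 and 9.20 in WT c-kit+, and 5.07, 3.88 and 4.67 in the libraries labelled IRF7-/- c-kit+. The groups descended without overlap. Bbc3 fell by 1.31 from WT c-kit- to WT c-kit+ (SE 0.10, limma adjusted p = 0.00014, 2.65-fold in mean TPM). It fell by 0.87 between the c-kit+ groups (SE 0.13, adjusted p = 0.00212, 2.01-fold in mean TPM), so that WT c-kit- held 5.33 times the mean of the libraries labelled IRF7-/- c-kit+. Each of the 3 calls held under all alternatives tried.

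Pmaip1, which binds Mcl1 and A1 and promotes the breakdown of Mcl1, varied widely between the libraries of each WT group. Encoded on chromosome 18 (66458533 to 66465565), it was at 66.4, 202 and 225 TPM in WT c-kit-, 109, 143 and 49.2 in WT c-kit+, and 31.8, 35.4 and 32.8 in the libraries labelled IRF7-/- c-kit+. Within each WT group 1 library lay far below the other two, and every WT library was above the libraries labelled IRF7-/- c-kit+. Pmaip1 fell by 1.44 from WT c-kit+ to the latter (SE 0.36, limma adjusted p = 0.0159, 3.02-fold in mean TPM) and by 2.09 from WT c-kit- (SE 0.44, adjusted p = 0.00578, 4.94-fold). The first of these calls was lost without WT c-kit+ replicate 1, where the difference was -1.31 at adjusted p = 0.0548. Without WT c-kit+ replicate 2 the difference was smaller, -1.12, and stayed past the threshold (adjusted p = 0.0340). Between the WT groups it was -0.65 with a 95% interval of -1.99 to 0.69 (adjusted p = 0.396), which leaves a difference in either direction possible. Ddit3, the stress-response factor CHOP, was low in the same libraries as Pmaip1, at 19.5, 35.8 and 47.0 TPM in WT c-kit-, 30.1, 41.8 and 26.6 in WT c-kit+, and 18.1, 16.8 and 17.0 in the libraries labelled IRF7-/- c-kit+.

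Bcl2l11 binds all pro-survival proteins and is needed for the death of many blood cells. It lies on chromosome 2 (128126038 to 128162547) and was at 18.6, 19.3 and 19.8 TPM in WT c-kit-, 16.0, 11.7 and 15.7 in WT c-kit+, and 10.5, 11.6 and 11.4 in the libraries labelled IRF7-/- c-kit+. The groups did not overlap, though WT c-kit+ replicate 2 came within reach of the lowest group. Bcl2l11 fell by 0.73 from WT c-kit- to the libraries labelled IRF7-/- c-kit+ (SE 0.08, limma adjusted p = 0.000374), which held under each alternative. The step from WT c-kit- to WT c-kit+, a fall by 0.40 (SE 0.13, adjusted p = 0.0457), was past the threshold in only 4 of 14 alternatives and in none of the 6 that left out a library (adjusted p from 0.0515 to 0.109). The step between the c-kit+ groups, -0.34 (SE 0.13, adjusted p = 0.0735), reached it in 4 of 14, one of them the fit without WT c-kit+ replicate 2 (-0.47, adjusted p = 0.00810).

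Between WT c-kit+ and WT c-kit- 6 of the 10 members passed the test, 1 of them higher and 5 lower in WT c-kit+. Over all 13261 genes tested, 14.0% were higher and 27.6% lower. Their median difference was -0.53, against -0.08 over all genes. Only Bcl2 and Bbc3 also passed 2-fold, where 14.4% of all genes did, and 7 members had groups that did not overlap, where 54.4% of all genes did.

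In the libraries labelled IRF7-/- c-kit+ against WT c-kit+ 6 members passed, Bax and Bak1 higher and Mcl1, Bcl2l1, Pmaip1 and Bbc3 lower. The background was 31.9% higher and 16.1% lower among 13238 genes tested, and the members' median was -0.44 against 0.12 for all genes. With the most abundant genes left out of the total, 2790 genes were higher and 3053 lower, so which direction held more calls depended on the scaling. On the log2(TPM + 1) scale Pmaip1 passed 2-fold (11.7% of all genes did), while Bbc3, at -0.87 there, was 2.01-fold lower in mean TPM and at -1.02 with the most abundant genes left out, and 7 members did not overlap between groups (59.1% of all genes). Bcl2, at -0.63, was not among those that passed.

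Against WT c-kit- the libraries labelled IRF7-/- c-kit+ had 7 members past the threshold. Bak1 was higher, and Mcl1, Bcl2, Bax, Bcl2l11, Pmaip1 and Bbc3 were lower, against 30.7% higher and 28.7% lower of 13510 genes. Mcl1, Bcl2, Pmaip1 and Bbc3 passed 2-fold (20.3% of all genes), with falls by 1.56, 1.68, 2.09 and 2.19, and 7 members did not overlap (67.1% of all genes). The members' median was -0.47 and that of all genes 0.03. Each pair of comparisons shares 3 libraries, so their differences are not independent of each other. For single values the exact two-sided permutation test on 3 against 3 libraries cannot give a p below 0.1, and that was its p for all members whose groups did not overlap. In sorted but bulk RNA a lower value can come from fewer cells of a type or from less RNA per cell, and these cannot be told apart.

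The class sums show how these differences add up per length. The 9 listed pro-survival genes summed to 298 ± 34.5 TPM in WT c-kit-, 184 ± 17.0 in WT c-kit+ and 125 ± 5.23 in the libraries labelled IRF7-/- c-kit+ (SD, n = 3 each). The effectors summed to 238 ± 7.11, 166 ± 10.8 and 258 ± 11.2 TPM, and the 8 BH3-only genes to 399 ± 86.2, 239 ± 46.0 and 189 ± 7.15 TPM (SD, n = 3 each). Pro-survival sums descended without overlap, effector sums were lowest in WT c-kit+, and the BH3-only sum of the lowest WT c-kit+ library, 192 TPM, lay within the range of the third group.

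**Figure D3:**
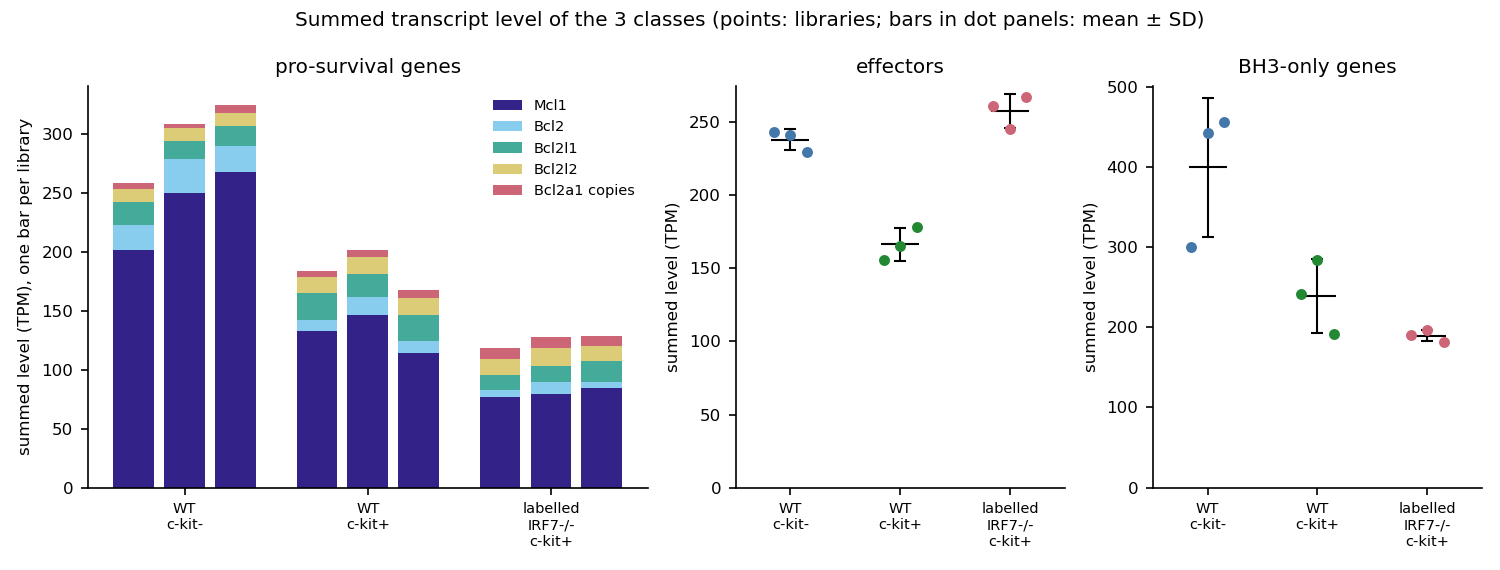
Summed level in TPM (vertical axes, from 0) of the pro-survival genes as 1 stacked bar per library, and of the effectors and BH3-only genes as 1 point per library with the mean ± SD, in the 3 groups. The pro-survival bars shrink from between 259 and 325 TPM in WT c-kit- to between 119 and 129 TPM in the libraries labelled IRF7-/- c-kit+, mostly through Mcl1, and Bcl2l10 is not drawn because it reached 0.110 TPM in 1 library and 0 in the rest.

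Mcl1 made up 80.5 ± 2.31% of the pro-survival sum in WT c-kit-, 71.0 ± 2.50% in WT c-kit+ and 64.0 ± 2.02% in the libraries labelled IRF7-/- c-kit+ (SD, n = 3 each), and its shares of the 9 listed genes did not overlap between groups. Among members alone its shares in the c-kit+ groups did overlap, at 75.3 to 79.5% and 74.1 to 77.2%. The share of Bcl2l2 (Bcl-w), which is no member, went from 3.79 to 7.60 to 11.2%, and that of the Bcl2a1 copies from 1.78 to 3.32 to 7.35%. Between the c-kit+ groups the mean level of Bcl2l2 was about the same, 13.9 TPM in WT c-kit+ and 14.0 TPM in the other, while the pro-survival sum fell. Bcl2l1 held 5.75% in WT c-kit- and 11.9 and 11.7% in the c-kit+ groups, so its share was about level between these while its TPM fell. Bcl2 held 8.23, 6.18 and 5.69%, with overlapping libraries.

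Ratios within a library do not change when all its values are multiplied by the same factor. They were taken on TPM only, and quantile normalization, which is not such a factor, was not tried on them. Mcl1 to Bax was 1.52, 1.94 and 2.23 in WT c-kit-, 2.19, 2.01 and 1.58 in WT c-kit+, and 0.694, 0.759 and 0.730 in the libraries labelled IRF7-/- c-kit+. The WT groups overlapped, and the third group lay well below both. Bcl2 to Bax was 0.192 ± 0.0315, 0.166 ± 0.0358 and 0.0658 ± 0.0284 (SD, n = 3 each), again with overlapping WT groups and the third group below them. Bcl2l1 to Bax differed from these in that WT c-kit+ stood alone at 0.320 ± 0.0549, against 0.132 ± 0.0155 and 0.133 ± 0.0159 (SD, n = 3 each). The ratio of all pro-survival to all effector transcripts was 1.06 to 1.41, then 0.944 to 1.22, then 0.457 to 0.522, in the order of groups used above. Mcl1 to Bak1 descended through all 3 groups, from 2.17 ± 0.315 to 1.36 ± 0.258 to 0.547 ± 0.0277 (SD, n = 3 each). Effector transcripts thus exceeded pro-survival ones in all 3 libraries labelled IRF7-/- c-kit+, and in 1 of the 6 WT libraries. The BH3-only to pro-survival ratio was 1.33 ± 0.149, 1.29 ± 0.134 and 1.51 ± 0.0913 (SD, n = 3 each). Its WT groups overlapped. The c-kit+ groups met at 1.41, the highest value in WT c-kit+ and the lowest in the libraries labelled IRF7-/- c-kit+.

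**Figure D4:**
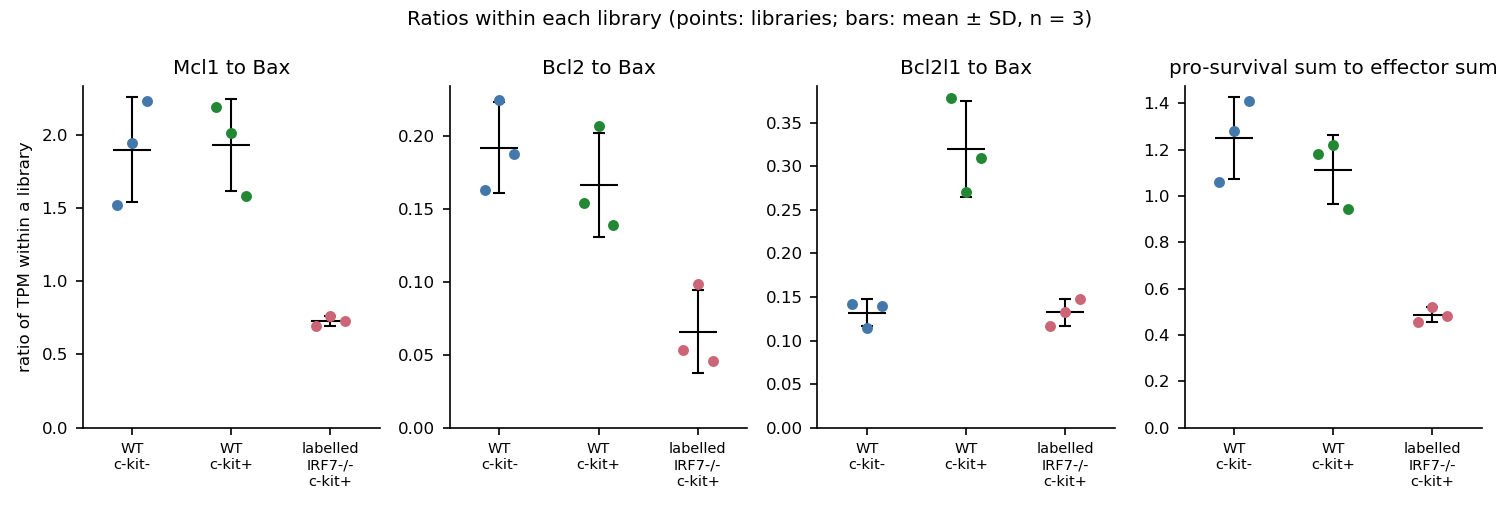
Ratios of TPM within each library (vertical axes, from 0) for Mcl1, Bcl2 and Bcl2l1 to Bax and for the pro-survival to the effector sum, with 1 point per library and the mean ± SD of 3 libraries in each group. Mcl1 to Bax lies between 1.52 and 2.23 in the WT libraries and between 0.694 and 0.759 in those labelled IRF7-/- c-kit+.

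The 10 listed family genes that are no members were partly silent. Hrk was listed at 0 in every library, and Bok, Bik, Bcl2l10 and Bcl2a1c did not pass the filter. Of the 5 that did, 3 rose and 1 fell in the libraries labelled IRF7-/- c-kit+ against WT c-kit+ (all genes 31.9% and 16.1%). Bcl2a1a rose by 1.03 (SE 0.18, limma adjusted p = 0.00435), and by 1.34 against WT c-kit- (SE 0.18, adjusted p = 0.000778), with the limit on single copies given above. Bmf, a BH3-only protein released from the cytoskeleton, was the family gene with the largest fall from WT c-kit- to either c-kit+ group. It was at 28.3, 22.6 and 23.8 TPM in WT c-kit-, 4.19, 5.29 and 5.64 in WT c-kit+, and 3.35, 2.37 and 2.88 in the libraries labelled IRF7-/- c-kit+. Bmf fell by 2.10 between the WT groups (SE 0.14, adjusted p = 6.68e-05) and by 0.64 between the c-kit+ groups (SE 0.16, adjusted p = 0.0141), the same order as Bbc3. Bid and Bad, BH3-only genes at 52.2 to 95.7 TPM in the group means, were instead lowest in WT c-kit+, the same order as Bax. Between the c-kit+ groups Bad rose by 0.15 (limma adjusted p = 0.0375). That difference was 0.05 after quantile normalization and 0.01 with the most abundant genes left out. The Bad call was also lost whichever library was left out (adjusted p from 0.0512 to 0.113).

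Upstream bases are shown for Mcl1, Bcl2 and Bax, the genes of the ratios above. They are the 250 bases before the RefSeq start in GRCm38.p6, 5′ to 3′ on the gene's strand, at chr3:95658471-95658720 (plus), chr1:106714291-106714540 (minus) and chr7:45466899-45467148 (minus). Capitals mark the GC box GGGCGG on either strand.
Mcl1: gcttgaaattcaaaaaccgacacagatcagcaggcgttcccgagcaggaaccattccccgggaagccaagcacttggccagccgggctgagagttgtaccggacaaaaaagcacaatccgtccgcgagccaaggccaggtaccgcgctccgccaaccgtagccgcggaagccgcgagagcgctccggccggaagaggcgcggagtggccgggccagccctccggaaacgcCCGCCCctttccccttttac
Bcl2: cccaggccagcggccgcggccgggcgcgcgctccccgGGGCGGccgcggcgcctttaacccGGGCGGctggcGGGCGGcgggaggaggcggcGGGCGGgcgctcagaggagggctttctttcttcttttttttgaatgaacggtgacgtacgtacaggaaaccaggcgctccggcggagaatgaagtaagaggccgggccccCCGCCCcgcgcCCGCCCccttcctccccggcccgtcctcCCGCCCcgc
Bax: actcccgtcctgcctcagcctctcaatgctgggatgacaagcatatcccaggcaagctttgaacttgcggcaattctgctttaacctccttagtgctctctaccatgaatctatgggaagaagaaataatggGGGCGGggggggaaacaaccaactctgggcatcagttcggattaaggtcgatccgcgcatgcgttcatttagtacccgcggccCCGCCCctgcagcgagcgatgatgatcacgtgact
The stretch of Bcl2 is 74.8% G and C and holds 7 GC boxes, that of Mcl1 64.4% with 1, and that of Bax 54.0% with 2. RefSeq promoter windows of 300 bases (250 before and 50 after the start) were found for 9 of the 10 members, 14 windows in all. GGGCGG was in 10 of the 14, against 35.7% of all 32851 windows. The core of interferon regulatory factor sites, AANNGAAA on either strand, was in 4 of the 14, those of Bcl2l1 (2), Bcl2a1d and Bcl2l11, against 23.9% of all windows. CCAAT was in 3 of the 14 (37.4% of all) and TATAAA in 0 of the 14 (13.6% of all). A match describes letters in a window and not a bound site.

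For the 3 members with the widest range of group means, the genes with the most similar profile over the 9 libraries were found among 3006 candidates by Pearson's r on log2(TPM + 1). They were Ndrg1 and Slc46a3 for Bbc3 (r = 0.996 each), Zfand5 (r = 0.987) and Dhx40 (r = 0.980) for Pmaip1, and Cep85 (r = 0.990) and Apobec3 (r = 0.987) for Bcl2. The 9 libraries fall into 3 groups, so such r values mostly follow the group means and are given as a description.

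Genes that act before or after the BCL2 family were described by 4 lists with 43 genes. Of the 14 apoptosome and caspase genes, 7 rose and 0 fell in the libraries labelled IRF7-/- c-kit+ against WT c-kit+, where 31.9% of all genes rose and 16.1% fell, with the largest rise in Endog (0.55, SE 0.19, limma adjusted p = 0.0486), a mitochondrial nuclease. That split was 2 and 2 after quantile normalization and 2 and 2 with the most abundant genes left out, where Endog was at 0.46 (adjusted p = 0.0825) and 0.45 (adjusted p = 0.0990), and it also missed without WT c-kit+ replicate 1 or 3 or IRF7-/- c-kit+ replicate 1 or 2 (adjusted p from 0.102 to 0.137). Between the WT groups 2 rose and 8 fell (all genes 14.0% and 27.6%), most of all Casp6, an executioner caspase (-1.53, adjusted p = 0.000164). There the split was 2 and 5 after quantile normalization and 2 and 6 with the most abundant genes left out. Against WT c-kit- the libraries labelled IRF7-/- c-kit+ had 4 higher and 6 lower (all genes 30.7% and 28.7%). The largest fall was again in Casp6 (-1.07, adjusted p = 0.000106).

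Of 8 genes tested in the caspase inhibitor list, which holds Naip genes, 1 rose between the c-kit+ groups (Naip2, 0.38, limma adjusted p = 0.00347). In the same comparison 2 fell (the larger Birc2, -0.46, adjusted p = 0.00276), where 31.9% of all genes rose and 16.1% fell. The split was 1 and 3 after quantile normalization. From WT c-kit- to WT c-kit+, where 14.0% of all genes rose and 27.6% fell, Cflar, the inhibitor of caspase-8 activation, rose by 0.27 (adjusted p = 0.00939), while 5 fell, most of all Naip6 by 1.30 (adjusted p = 2.89e-05). Against WT c-kit- the libraries labelled IRF7-/- c-kit+ had 0 higher and 5 lower (all genes 30.7% and 28.7%), with Birc3 (cIAP2) at -1.45 (adjusted p = 0.000219). Naip genes are close copies of each other, so their single values are uncertain too. The list counted them as caspase inhibitors, and whether they act as such in these cells was not tested.

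Of the death receptor genes, Fas rose by 0.68 between the c-kit+ groups (limma adjusted p = 0.0186). Of the 8 tested there, 2 rose, Fas among them, and 0 fell (all genes 31.9% and 16.1%). After quantile normalization 1 rose and 1 fell, and with the most abundant genes left out 3 fell and 1 rose. The other rise, Fadd (0.32, limma adjusted p = 0.0366), lost its call on both of these scales. It also lost the call without any library other than IRF7-/- c-kit+ replicate 2 (adjusted p from 0.0656 to 0.120). The Fas call was lost without WT c-kit+ replicate 3 (adjusted p = 0.0514), IRF7-/- c-kit+ replicate 1 (adjusted p = 0.0635) or IRF7-/- c-kit+ replicate 3 (adjusted p = 0.0563). Tnfrsf1b, the second receptor for TNF, fell by 1.54 from WT c-kit- to WT c-kit+ (adjusted p = 4.53e-05), where 4 of 7 fell (all genes 27.6%). From WT c-kit- it fell by 1.69 to the libraries labelled IRF7-/- c-kit+ (adjusted p = 2.13e-05), where 3 of 8 fell and 2 rose (all genes 28.7% and 30.7%). The largest rise in the latter was in Tnfrsf10b (0.77, adjusted p = 0.00463), a receptor for TRAIL at 1.86 TPM there.

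The 12 mitochondrial and turnover partners showed small changes apart from Ddit3 and Foxo3. Between the c-kit+ groups 4 of the 12 rose and 2 fell, near the shares of all genes, 31.9% and 16.1%. Among them were Usp9x, a deubiquitinase that stabilizes Mcl1 protein, at 0.46 (limma adjusted p = 0.00387) and Ddit3 at -0.86 (adjusted p = 0.00505). Between the WT groups 0 rose and 4 fell (all genes 14.0% and 27.6%). The largest fall was in Foxo3 at -1.05 (adjusted p = 0.000124), a factor that drives Bcl2l11 and Bbc3. After quantile normalization 3 rose and 2 fell, and with the most abundant genes left out 2 rose and 2 fell. In the libraries labelled IRF7-/- c-kit+ against WT c-kit- 3 rose and 3 fell (all genes 30.7% and 28.7%). They ran from Trp53, the gene of p53, at 0.48 (adjusted p = 0.000596) to Foxo3 at -1.15 (adjusted p = 9.09e-05).

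Over the 4 lists, 14 of 42 genes rose and 4 fell between the c-kit+ groups, against 31.9% and 16.1% of all genes (median 0.10, all genes 0.12). Between the WT groups 3 of 41 rose and 21 fell, against 14.0% and 27.6% (median -0.22, all genes -0.08). This split narrowed to 8 and 14 after quantile normalization and to 6 and 17 with the most abundant genes left out. Between the libraries labelled IRF7-/- c-kit+ and WT c-kit- 9 of 42 rose and 17 fell, against 30.7% and 28.7% (median -0.10, all genes 0.03). The share that rose between the c-kit+ groups was near that of all genes. The split between the c-kit+ groups turned with the scaling, to 7 and 9 after quantile normalization and to 7 and 11 with the most abundant genes left out. Over all genes that passed in that comparison, the share that was higher went from 66.4% to 55.4% and 47.7%. Between the WT groups it went from 33.7% to 53.9% and 48.3%. The members moved less, with 2 higher and 5 lower, and 2 higher and 6 lower, between the c-kit+ groups on these scales, and 1 higher and 4 lower between the WT groups on both.

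**Figure D5:**
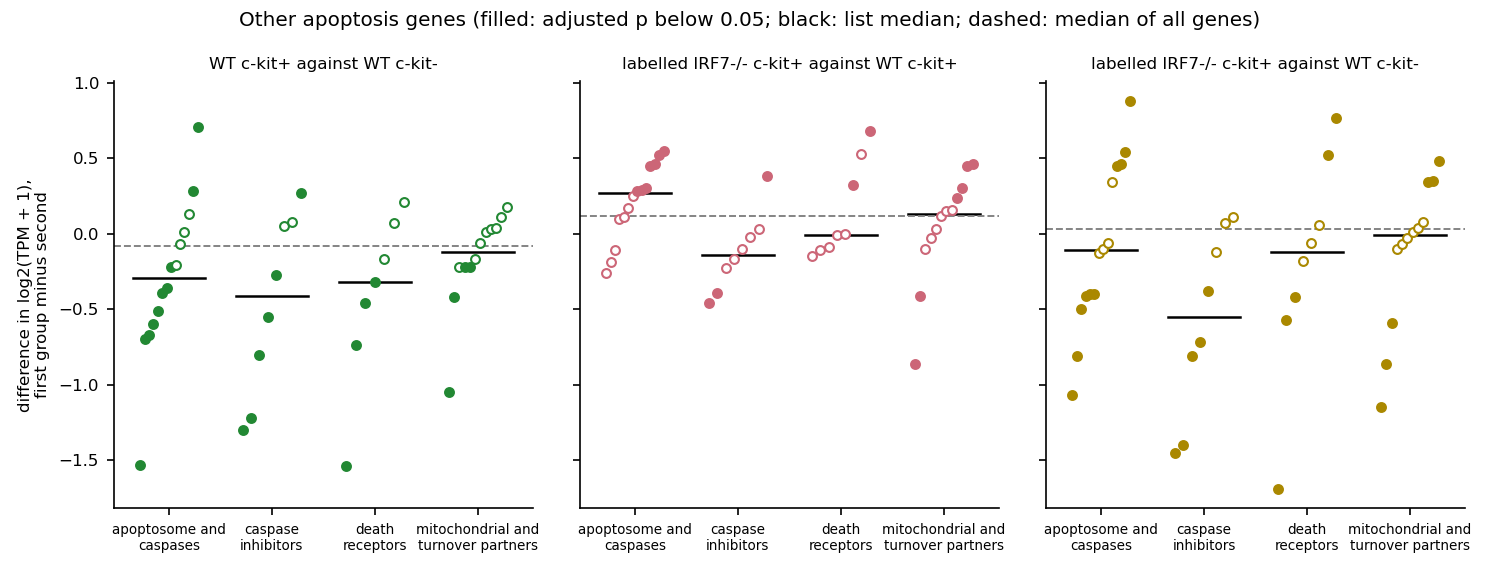
Difference in log2(TPM + 1), first group minus second (vertical axis), of the tested genes of 4 apoptosis lists, 1 panel per comparison, each list sorted by value; filled points passed adjusted p below 0.05, black lines are list medians and the dashed line the median of all genes. The caspase inhibitor list, with the Naip genes in it, has medians of -0.41, -0.14 and -0.55 from left to right, below the all-gene medians of -0.08, 0.12 and 0.03.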

How the data were processed

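Expression was measured by RNA sequencing (TRIzol extraction, Illumina TruSeq RNA v2 libraries) in 9 libraries of 3 groups, assigned from the sample labels. The authors deposited 1 table of TPM values for 55536 genes, without counts, depth or error. The aligner, quantifier and build are not given in the sources used here. All gene identifiers were found in GENCODE M21 (GRCm38), and upstream sequences and promoter windows came from RefSeq on GRCm38.p6. Each column of the table was assigned to a sample.

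For each pair of groups, the log2(TPM + 1) values of each gene that reached 1 TPM in 3 or more of the 6 libraries were tested with limma 3.58.1 in R 4.3.3 (eBayes with trend, two-sided, Benjamini-Hochberg over all genes tested). A gene was called at an adjusted p below 0.05, and 2-fold calls also needed a log2 difference of at least 1. The fit was tested on simulated data. Tables and figures were made in Python 3.11.15 with pandas 2.3.3, numpy 2.4.6 and matplotlib 3.10.9.

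Members and gene lists were chosen with earlier results of these data known. Named genes are the members, family genes called and changed 2-fold, the called gene with the largest rise and fall of each other list, and, for the 3 members of widest range, the 2 most similar genes. One gene that this rule names is not reported here. Other genes appear where a check, a count of 5 or fewer or a ratio needed them, and were chosen after their values were seen. Alternatives were no filter or a minimum of 5 TPM, a smaller pseudocount (0.1), quantile normalization, totals without the 90 most abundant genes, all 9 libraries in one fit, replicate number as a block, summed Bcl2a1 copies and each library left out in turn. Depth is unknown, so no counting interval is given.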

Additional observations from a re-analysis of the deposited data

How the results depend on the processing

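Of 408 member differences under alternatives, 370 kept direction and side of the threshold, 23 lost the call, 10 gained it and 5 turned direction. The turned values, none of them called, were Bak1 between the WT groups after quantile normalization (0.01), and, in the libraries labelled IRF7-/- c-kit+ against WT c-kit-, Bcl2a1b without IRF7-/- c-kit+ replicate 3 (0.12) or WT c-kit- replicate 3 (0.24) and Bcl2a1d without IRF7-/- c-kit+ replicate 1 (-0.12) or WT c-kit- replicate 2 (-0.07). Over all libraries left out in turn these ran from -0.31 to 0.24 for Bcl2a1b and from -0.12 to 0.26 for Bcl2a1d. Bcl2a1b between the WT groups was called only without WT c-kit- replicate 3 (0.56, adjusted p = 0.0334). With a filter of 5 TPM the other family genes called between the c-kit+ groups went from 4 to 2, since Bcl2a1a and Bmf were no longer tested. Leaving out each library in turn, members called ranged from 5 to 7 between the c-kit+ groups, from 4 to 5 between the WT groups and from 6 to 7 between the libraries labelled IRF7-/- c-kit+ and WT c-kit-, and the other pathway genes called between the c-kit+ groups ranged from 11 (without WT c-kit+ replicate 3) to 18, the latter being the number with all libraries. The Mcl1 share of the pro-survival sum was 84.0, 77.9 and 75.8% when only members were summed, in the order WT c-kit-, WT c-kit+ and libraries labelled IRF7-/- c-kit+.

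The labels do not say whether replicate numbers pair the libraries, and the values do not settle it. Deviations from group means of same-numbered libraries correlated at -0.0712 to 0.237. With a replicate block, 7 members were called between the c-kit+ groups (Bcl2 gained, adjusted p = 0.0120), 5 between the WT groups (Bcl2l11 lost, adjusted p = 0.0633) and 6 between the libraries labelled IRF7-/- c-kit+ and WT c-kit- (Bax lost, adjusted p = 0.0610). Every library correlated best with its own number in this last comparison and not in the other two. Without counts the depth behind each TPM value is unknown, which limits Bcl2a1b and Bcl2a1d most.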
